A study of Arabidopsis thaliana with 4 samples.

Results

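The phi and tau classes of glutathione S-transferases (GSTs) were examined in roots of Arabidopsis thaliana Columbia (Col-0) seedlings. The set comprised the 41 genes named GSTF2 to GSTF14 (phi class, 13 genes) and GSTU1 to GSTU28 (tau class, 28 genes), taken by locus identifier from a table of 27655 genes. Wild-type seedlings had grown for 8 days on Murashige and Skoog medium with 5 µM phosphate (low_Pi, 2 libraries) or with 625 µM phosphate (plus_Pi, 2 libraries), in a series concerned with cis-zeatin, a cytokinin, under phosphate starvation. The deposited table is titled as dark-grown roots, which the sample labels do not give. Polyadenylated RNA was sequenced, and the values are whole numbers that the authors call normalized counts.

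GSTs join the tripeptide glutathione to reactive or hydrophobic compounds, reduce some peroxides with it, or carry ligands without a reaction. The phi and tau classes are largely specific to plants and are known from herbicide and safener responses. Several members also act in plant metabolism, such as GSTF6 in camalexin synthesis and GSTF12 (TRANSPARENT TESTA 19) in anthocyanin delivery to the vacuole. Phosphate starvation brings a broad transcriptional response in roots, part of it through PHR1, a factor that binds P1BS sites.

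Column totals ran from 38831704 to 44635953, and the read depth behind them is unknown. The columns of a group agreed more closely than independent read counts would, with a chi-square per gene of 0.276 for low_Pi and 0.435 for plus_Pi, where independent counts give about 1. Each group was therefore counted as 1 sample, so differences carry no p-value and rest on no replicate check. Log2 differences are low_Pi minus plus_Pi on log2(value + 41.5), a scale that understates differences of low genes. The 18729 genes whose mean reached 41.5 were compared, with a 2-fold difference as the size that counts as a call. The median of all compared genes was a log2 difference of -0.26, and values relative to this median are given beside some results. All 8 root marker genes were present in every library, among them the root hair genes EXPA7 and COBL9, at 3.19-fold and 3.10-fold higher values in low_Pi, while the root cap gene SMB was lower (log2 -1.08). Of the 8 root markers, 3 lay above 0 (EXPA7, COBL9 and the endodermal gene CASP1) and 5 below 0 (SCR, GL2, PLT1, WOX5 and SMB), with a median of -0.54. Their sum, 23410 to 25106 in low_Pi and 14214 to 15786 in plus_Pi, was higher through the first 3. Of 8 green tissue markers, 3 were 2-fold lower (CA1, GAPB and PSAF) and 0 higher, beside 4.47% and 4.58% of all compared genes. All 8 lay below 0, with a median of -0.76, where 28.6% of all compared genes lay above 0. Their sum was 2740 to 2946 in low_Pi and 4744 to 5171 in plus_Pi. The part of other tissue in the results was not tested.

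Both classes made up more of the column total in low_Pi. Phi genes held 0.396% and 0.397% of the total in low_Pi roots, against 0.282% and 0.282% in plus_Pi. Tau genes held 0.406% and 0.406% in low_Pi roots, against 0.361% and 0.363% in plus_Pi. The libraries of a group were nearly equal in both shares, and the groups did not overlap. This is no replicate check, because each group counts as 1 sample. On the deposited scale, 21.9% of all compared genes had both low_Pi values above both plus_Pi values, and 62.5% had both below. As ratios of group means, the class shares of the column total were 1.41-fold higher for phi genes and 1.12-fold higher for tau genes. The summed deposited values were 1.33-fold and 1.07-fold higher, and for tau genes the ratio between single libraries ran from 0.974 to 1.17. In bulk roots, a different number of cells of a type and a different amount of RNA per cell cannot be told apart.

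**Figure D1:**
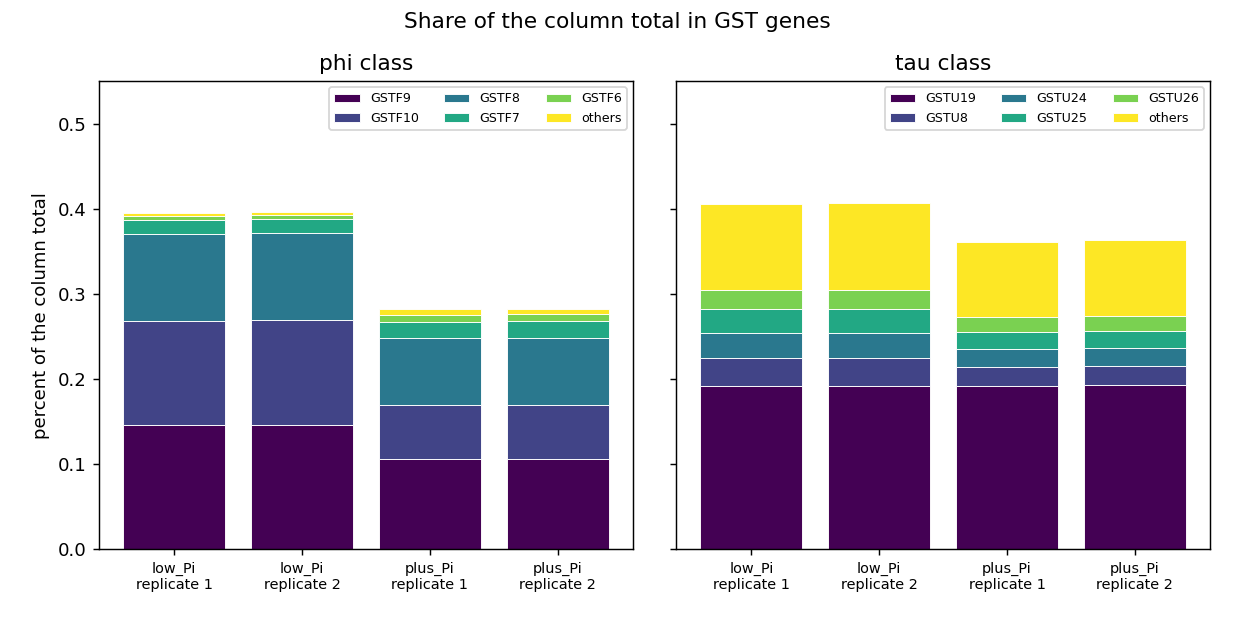
Percent of the column total (vertical axis) in phi genes (left) and tau genes (right) for each of the 4 libraries, stacked by the 5 members with the highest mean and all others. Phi genes held 0.396% and 0.397% in low_Pi against 0.282% in each plus_Pi library, while the GSTU19 segment was of nearly the same height in all libraries.

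Of the 33 members past the minimum mean, 26 stayed under a 2-fold difference, 4 were higher and 3 lower. Of the 13 phi genes, 9 passed the minimum mean, 0 were at least 2-fold higher and 3 were at least 2-fold lower in low_Pi (GSTF3, GSTF13 and GSTF14). Of the 28 tau genes, 24 passed, 4 were at least 2-fold higher (GSTU10, GSTU14, GSTU20 and GSTU28) and 0 were at least 2-fold lower. The corresponding shares of all compared genes were 4.58% higher and 4.47% lower, together 1695 of 18729 genes. At 1.5-fold, 2 phi and 7 tau genes were higher and 4 phi genes and 1 tau gene lower, beside 8.77% and 20.7% of all compared genes. GSTF3 and GSTF14 passed the minimum mean through their plus_Pi values alone, so they had to differ between groups to be counted at all, and no direction of the phi class is read from these calls. Median-of-ratios scaling, which sets the median gene near 0, gave 7 members higher and 1 lower, beside 4 and 3 on the deposited scale. Over all genes it gave 1238 higher and 428 lower, against 857 and 838. The members added as higher were GSTF10, GSTU4 and GSTU9, and GSTF14 was the 1 member still lower. No test of a difference between the classes was made.

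**Figure D2:**
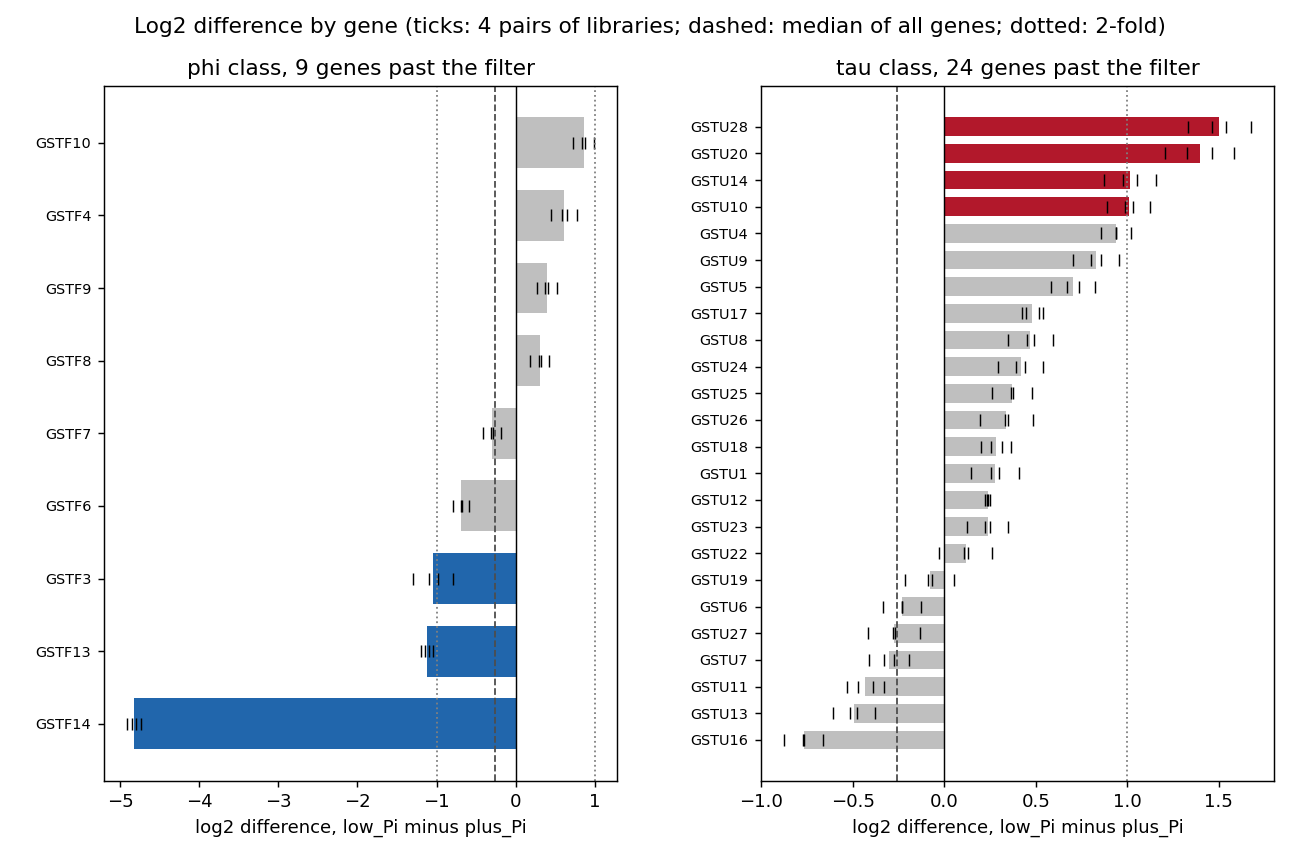
Log2 difference, low_Pi minus plus_Pi (horizontal axis), for the 9 phi genes (left) and 24 tau genes (right) that passed the minimum mean; bars are group differences, ticks the 4 pairs of libraries, red at least 2-fold higher, blue at least 2-fold lower. GSTF14 stands at -4.83 and GSTU28 at 1.503. The ticks of GSTF8 run from 0.18 to 0.43 around its bar's end at 0.30, and those of GSTU19 and GSTU22 lie on both sides of 0.

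Most of the phi class signal came from 3 highly expressed genes. GSTF9, which has glutathione peroxidase activity, had 61350 and 56844 in low_Pi roots, against 42824 and 47235 in plus_Pi roots. GSTF10, also known as ERD13 from its early response to dehydration, had 51410 and 47534 in low_Pi roots, against 25874 and 28621 in plus_Pi roots. GSTF8, a gene long used as a marker of early stress responses, had 42866 and 39663 in low_Pi roots, against 31860 and 34952 in plus_Pi roots. In each of these genes both low_Pi values lay above both plus_Pi values, as in 21.9% of all compared genes. The log2 differences were 0.39 for GSTF9, 0.86 for GSTF10 and 0.30 for GSTF8, all under 2-fold, and GSTF10 reached 1.14 with median-of-ratios scaling. Together they held 93.5% of the phi sum in low_Pi and 88.0% in plus_Pi. GSTF10 alone had 22224.5 more in low_Pi, which was 55.4% of the net difference in the phi sum, with 35.1% from GSTF9 and 19.6% from GSTF8. The share of GSTF10 in the phi sum was 30.9% in low_Pi and 22.7% in plus_Pi, while that of GSTF9 was 36.9% and 37.5%.

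Per kb of coding length, these genes stood next to GSTU19 at the top of the family. In low_Pi the order was GSTU19 (117409 per kb), GSTF9 (91199), GSTF10 (76346) and GSTF8 (52102). In plus_Pi it was GSTU19 (124102 per kb), GSTF9 (69490), GSTF8 (42179) and GSTF10 (42049). The places of GSTF8 and GSTF10 were thus exchanged, although they were close to equal in plus_Pi. GSTF9 and GSTF10 are neighbours on chromosome 2 (chr2:13138882-13140392 and chr2:13141290-13142676, plus strand, RefSeq TAIR10.1), and their coding sequences were 77.8% identical.

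GSTF14 (AT1G49860, chr1:18458526-18459969, plus strand) had the largest difference of the family. It had 11 and 9 in low_Pi roots, against 1361 and 1479 in plus_Pi roots. Both low_Pi values were under the minimum mean and far below both plus_Pi values. The log2 difference was -4.83, or 28.3-fold lower, and the third lowest of all compared genes. It depended on the pseudocount, at -6.66 with 4.15 and -2.90 with 208, and stayed past 4-fold in both. Per kb of coding length, GSTF14 ranked 34 of 41 in low_Pi and 17 in plus_Pi. It stood alone on its chromosome stretch and was the phi member with the least similar closest relative, at 55.7% identity to GSTF3. The 300 bases around its annotated start are shown because it is the member that differs most. They held none of the motifs searched, which would be in capitals.
GSTF14 (chr1:18458276-18458575, plus strand, TAIR10.1): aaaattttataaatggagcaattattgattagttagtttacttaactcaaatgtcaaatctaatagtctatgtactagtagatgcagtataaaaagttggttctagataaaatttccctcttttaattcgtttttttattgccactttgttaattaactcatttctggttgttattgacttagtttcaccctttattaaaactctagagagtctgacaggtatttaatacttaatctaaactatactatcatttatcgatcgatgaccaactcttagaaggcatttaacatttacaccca

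GSTF13 and GSTF3 were also lower, at far smaller values. GSTF13 (AT3G62760) had 81 and 77 in low_Pi roots, against 211 and 229 in plus_Pi roots. GSTF3 (AT2G02930), the near copy of GSTF2, had 17 and 31 in low_Pi roots, against 102 and 84 in plus_Pi roots. In both genes the low_Pi values lay below both plus_Pi values, as in 62.5% of all compared genes. The low_Pi values of GSTF3 lay far apart from each other. The log2 differences were -1.12 for GSTF13 and -1.04 for GSTF3. GSTF3 was at -1.83 and -0.38 with pseudocounts of 4.15 and 208, and leaving out low_Pi replicate 1 put it at -0.89, and leaving out plus_Pi replicate 1 at -0.95. With median-of-ratios scaling neither was 2-fold lower, at -0.91 for GSTF13 and -0.89 for GSTF3.

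GSTF6 and GSTF7, the camalexin-linked gene and its neighbour, were below 0 without reaching 2-fold. GSTF6 (AT1G02930) had 2297 and 2125 in low_Pi roots, against 3466 and 3699 in plus_Pi roots (log2 -0.69). GSTF7 (AT1G02920) had 6946 and 6472 in low_Pi roots, against 7875 and 8632 in plus_Pi roots (log2 -0.30). In each gene both low_Pi values lay below both plus_Pi values, as in 62.5% of all compared genes. Relative to the median gene, GSTF6 and GSTF7 were at -0.43 and -0.04. Their coding sequences were 94.3% identical, and 9.41% of the 50-base windows of the GSTF6 transcript, but 1.56% of its 100-base windows, also occurred in another gene's transcript. How the authors assigned reads common to both is not given in the sources used here, so the split between them is less certain. The 150 coding bases in which they differ most are shown to make this likeness visible, with the 15 differing bases in capitals.
GSTF6 (coding bases 117 to 266): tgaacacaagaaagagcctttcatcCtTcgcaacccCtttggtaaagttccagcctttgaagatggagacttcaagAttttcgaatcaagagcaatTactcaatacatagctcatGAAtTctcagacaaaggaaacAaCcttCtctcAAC
GSTF7 (coding bases 117 to 266): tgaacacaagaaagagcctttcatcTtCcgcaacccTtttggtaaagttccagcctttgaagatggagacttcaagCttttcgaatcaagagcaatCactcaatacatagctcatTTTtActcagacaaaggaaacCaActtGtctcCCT

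GSTF4, the remaining phi gene past the minimum mean, had 1405 and 1281 in low_Pi roots, against 803 and 925 in plus_Pi roots (log2 0.61). Both low_Pi values lay above both plus_Pi values, as in 21.9% of all compared genes.

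Another 4 phi genes stayed under the minimum mean. GSTF12, the anthocyanin gene, had 6 and 6 in low_Pi roots, against 5 and 5 in plus_Pi roots. GSTF2, a gene whose product binds auxin and camalexin, GSTF5 and GSTF11 were listed at 0 in all 4 libraries. In the RefSeq annotation 60.5% of the exon bases of GSTF2 lay under the antisense gene TOC159 (AT4G02510, a chloroplast import receptor), which had 4405 and 4041 in low_Pi roots, against 7000 and 7632 in plus_Pi roots. For GSTF11, a gene linked to aliphatic glucosinolate synthesis, 100% of the exon bases lay under the antisense gene NAC045 (AT3G03200), which had 75 and 74 in low_Pi roots, against 73 and 78 in plus_Pi roots. GSTF5 had no exon overlap with another gene of the table. Over the whole table, 78.4% of 698 genes with at least 50% of their exon bases overlapped were listed at 0 in every library, against 18.8% of 20688 genes without overlap and 5.84% of 6059 genes with a smaller overlap, so the share did not follow overlap in one direction. The protocols do not mention strand, no source used here gives the counting rule, and the part of overlap in these zeros was not tested. Whether RNA of GSTF2 or GSTF11 was absent cannot be told from these zeros, and the coding sequence of GSTF2 was also 94.5% identical to that of GSTF3. GSTU2 is uncertain as well, with 70.4% of its exon bases overlapped and 28 and 24 in low_Pi roots, against 30 and 15 in plus_Pi roots.

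**Figure D3:**
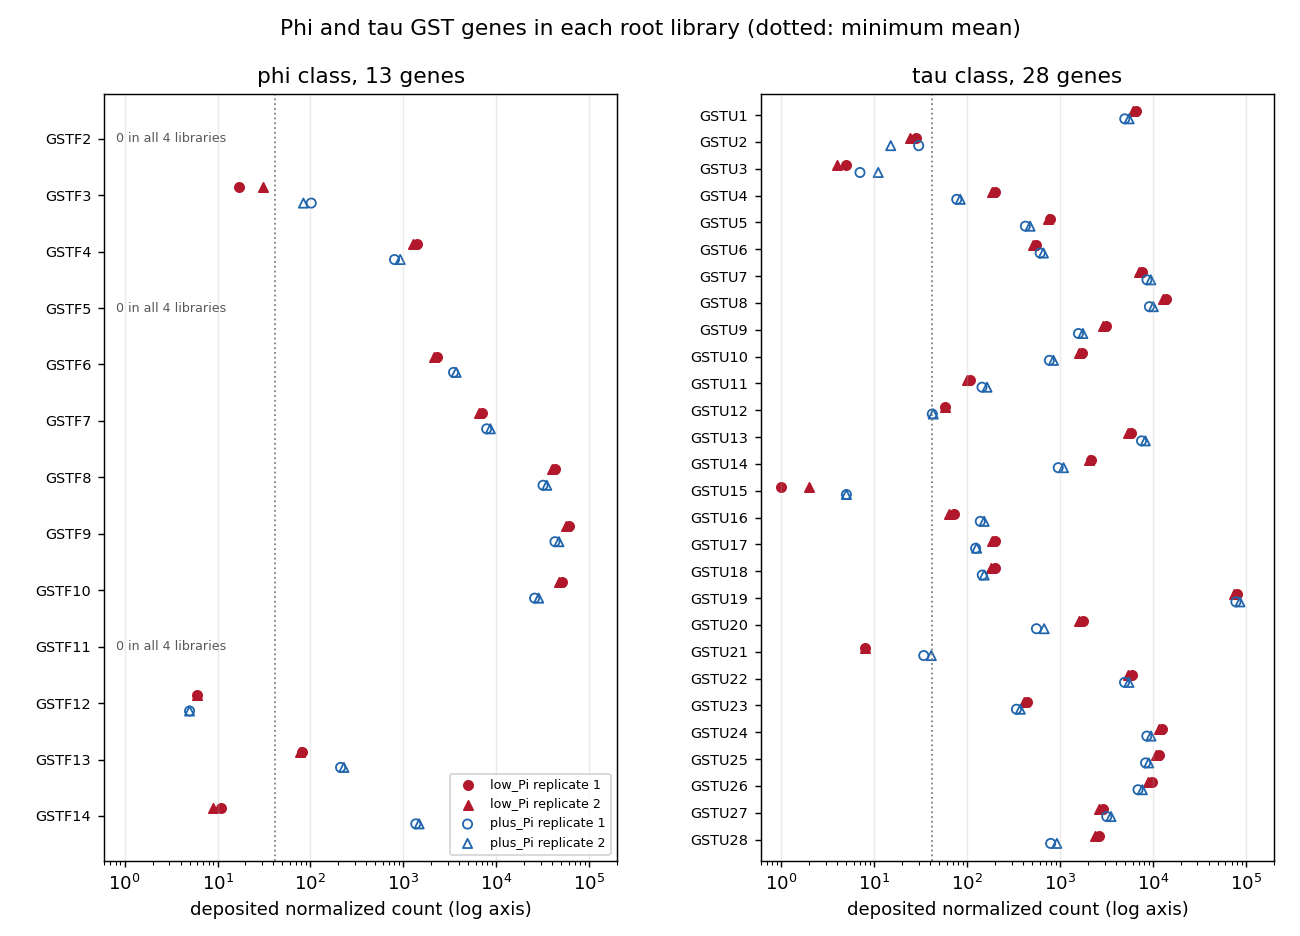
Deposited normalized count (horizontal log axis) of each phi gene (left) and tau gene (right) in every library, filled red for low_Pi and open blue for plus_Pi. GSTU19, GSTF9, GSTF10 and GSTF8 lie farthest right in every library, GSTF14 is at 11 and 9 in low_Pi, and GSTF2, GSTF5 and GSTF11 are listed at 0.

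In the tau class, GSTU19 was the most abundant gene and, on the deposited scale, the one that differed least. GSTU19 (AT1G78380), known for safener induction and high activity in detoxification, had 80739 and 74241 in low_Pi roots, against 77809 and 86006 in plus_Pi roots. The groups overlapped, and the log2 difference of -0.08 became 0.20 with median-of-ratios scaling. It held 47.2% of the tau sum in low_Pi and 53.1% in plus_Pi.

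The 4 called tau genes were of middle abundance. GSTU28 (AT1G53680) had 2610 and 2377 in low_Pi roots, against 789 and 920 in plus_Pi roots (log2 1.503). GSTU20 (AT1G78370, chr1:29484120-29485389, minus strand), also known as FIP1 for its interaction with the jasmonate-conjugating enzyme JAR1 and linked to glucosinolate synthesis, had 1749 and 1605 in low_Pi roots, against 555 and 672 in plus_Pi roots (log2 1.396). These genes were 2.83-fold and 2.63-fold higher, with both low_Pi values above both plus_Pi values, as in 21.9% of all compared genes. Leaving out any single library kept them past 2-fold, which is no replicate check, because each group counts as 1 sample. GSTU14 (AT1G27140) had 2172 and 2024 in low_Pi roots, against 952 and 1085 in plus_Pi roots (log2 1.02). GSTU10 (AT1G74590) had 1719 and 1606 in low_Pi roots, against 765 and 846 in plus_Pi roots (log2 1.01). These stood barely past 2-fold, with GSTU4 (0.94) and GSTF10 (0.86) just outside it. Without low_Pi replicate 1 or without plus_Pi replicate 1, GSTU14 and GSTU10 were under 2-fold and 2 tau genes were called. In these settings the median of all compared genes also moved, from -0.26 to -0.31 and -0.32. With columns scaled to a common total, GSTU14 stood at 1.09 and GSTU10 at 1.08.

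The promoter of GSTU28, the largest gain of the family, is shown for comparison with that of GSTF14, the largest loss. It likewise held none of the motifs searched.
GSTU28 (chr1:20038070-20038369, plus strand, TAIR10.1): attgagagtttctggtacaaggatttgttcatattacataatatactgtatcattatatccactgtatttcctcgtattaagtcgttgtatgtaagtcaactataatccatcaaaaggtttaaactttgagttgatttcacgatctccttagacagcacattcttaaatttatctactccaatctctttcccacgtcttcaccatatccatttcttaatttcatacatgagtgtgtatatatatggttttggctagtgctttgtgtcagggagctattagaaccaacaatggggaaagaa

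The next most abundant tau genes lay above 0 without reaching 2-fold. GSTU8 (AT3G09270) had 13768 and 12807 in low_Pi roots, against 9117 and 10044 in plus_Pi roots (log2 0.47). GSTU24 (AT1G17170), which can conjugate the explosive TNT, had 12455 and 11639 in low_Pi roots, against 8554 and 9485 in plus_Pi roots (log2 0.42). GSTU25 (AT1G17180), with the same activity, had 11573 and 10778 in low_Pi roots, against 8290 and 8980 in plus_Pi roots (log2 0.37). In each of these genes both low_Pi values lay above both plus_Pi values, as in 21.9% of all compared genes. The same held for GSTU26 (AT1G17190), with 9637 and 8773 in low_Pi roots, against 6881 and 7655 in plus_Pi roots (log2 0.34). GSTU8 accounted for 3707 of the gains in the tau sum, and GSTU24 for 3027.5, while the difference was -4417.5 for GSTU19 and -2304 for GSTU13. The gains of all tau genes came to 19340.5 and the losses to -9290, a net difference of 10050.5.

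Of the 20 tau genes past the minimum mean and under 2-fold, 13 lay above 0, from 0.12 to 0.94, and 7 lay below 0, from -0.77 to -0.08. GSTU4, GSTU9 and GSTU5 were highest among them, at 0.94, 0.83 and 0.70. GSTU16 was lowest at -0.77, from 72 and 64 in low_Pi roots, against 138 and 152 in plus_Pi roots. GSTU13, known from the indole glucosinolate pathway of immunity, was at -0.50, and GSTU17, also called ERD9 and known from drought and light responses, at 0.48. The tau median was 0.31 over the 24 genes, and the phi median -0.30 over 9 genes, beside -0.26 over all compared genes. The phi median was 0.30 with a minimum mean of 208, which leaves out GSTF3 and GSTF13 but keeps GSTF14. Above 0 lay 17 of 24 tau genes and 4 of 9 phi genes, beside 28.6% of all compared genes, and above the median gene lay 19 tau and 4 phi genes. In 16 tau genes both low_Pi values exceeded both plus_Pi values, and in 6 both were below, while 21.9% and 62.5% of all compared genes did so. For phi genes these counts were 4 and 5. The phi median and counts include GSTF3 and GSTF14, which passed the minimum mean through plus_Pi alone and so had to be lower in low_Pi. No direction of the phi class is read from them. Under the minimum mean lay GSTU2, GSTU3, GSTU15 and GSTU21, the last with 8 and 8 in low_Pi roots, against 34 and 41 in plus_Pi roots.

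Neighbouring genes of the family were alike in some arrays and differed in sign in others. In chromosome order, with at most 1 other protein-coding gene between members, 27 of the 41 genes fell into 8 arrays and 14 stood alone. All members lay above 0 in the arrays of GSTU24, GSTU25 and GSTU26 (0.34 to 0.42), of GSTU17 and GSTU18 (0.28 to 0.48), and of GSTF9 and GSTF10 (0.39 to 0.86). On the deposited scale each of the other arrays held members on both sides of 0, although GSTU19 lay above 0 with median-of-ratios scaling. In the array of 5 tau genes on chromosome 1 (chr1:29467412-29488007), GSTU20 stood at 1.396 directly beside GSTU19 at -0.08. The array of 7 tau genes on chromosome 2 (chr2:12617936-12632538) ran from -0.30 for GSTU7 to 0.94 for GSTU4. GSTU13 and GSTU14 are adjacent and 82.5% identical in coding sequence, and stood at -0.50 and 1.02.

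**Figure D4:**
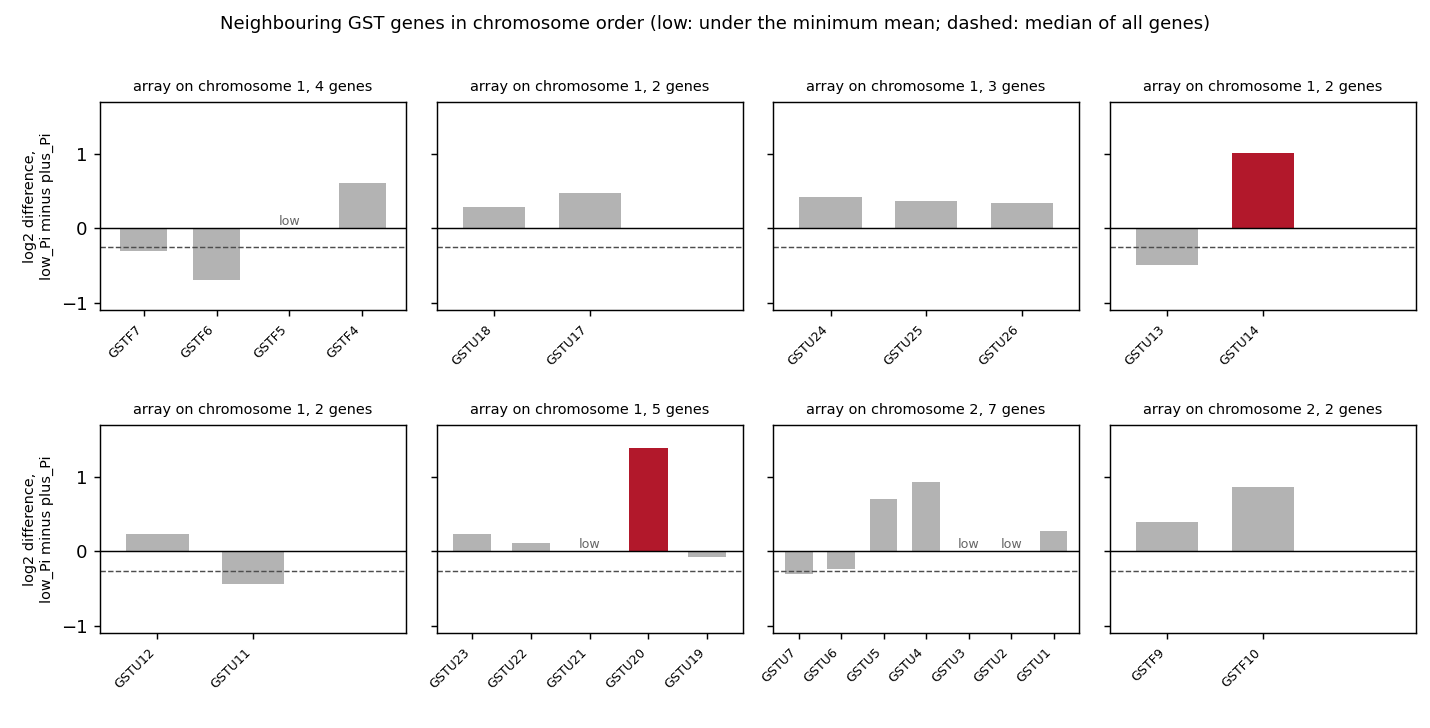
Log2 difference, low_Pi minus plus_Pi (vertical axis), of members in each of 8 arrays in chromosome order; red bars are at least 2-fold higher, and members under the minimum mean are marked low. GSTU24 to GSTU26 are level with each other, whereas GSTU20 stands at 1.396 beside GSTU19 at -0.08 and GSTU14 at 1.02 beside GSTU13 at -0.50.

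Sequence likeness was set beside these differences for 13 pairs that were each other's closest relative in coding sequence. In 7 pairs both genes passed the minimum mean, and 5 of these had the same sign and 2 opposite signs. The gap between the log2 differences of a pair ran from 0.05 (GSTU24 and GSTU25, 79.5% identical) to 1.51 (GSTU13 and GSTU14), with a median of 0.39. GSTU5 and GSTU6, at 83.4% identity, stood at 0.70 and -0.23, though 29.9% of the exon bases of GSTU6 lay under another gene, which was listed at 0. Of the 41 members, 28 had no 50-base window of their transcript in any other annotated transcript.

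Promoters were searched on both strands from 250 bases before to 50 bases after the annotated gene start. The P1BS motif GNATATNC was found in 1 of the 41 members (2.44%), against 6.25% of 27437 promoters. That member was GSTU11, with 106 and 100 in low_Pi roots, against 144 and 163 in plus_Pi roots (log2 -0.43). Among all genes at least 2-fold higher, 16.8% held it, beside 5.58% of those at least 2-fold lower and 6.33% of all compared genes with a promoter. Of the 4 higher members, 0 held it. The motif TGACG, the core of sites bound by TGA factors, was found in 17 members (41.5%), with 4 of 13 phi genes and 13 of 28 tau genes, against 23.1% of all promoters. It stood in 1 of the 4 higher members, 2 of the 3 lower members and 13 of the 26 members under 2-fold. Over all genes it stood in 23.6% of those higher, 24.7% of those lower and 23.7% of those compared. The G-box CACGTG was found in 3 members (7.32%), against 7.68% of all promoters. TGACG and CACGTG can share end bases, and so can copies of TGACG on opposite strands. A match is a description of these letters, and no match says only that they are not in the window.

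The promoters of GSTU11, with the P1BS motif, and of GSTU7, with the most TGACG matches (3), are shown with the motifs in capitals. In GSTU11 the P1BS match begins 94 bases before the gene start and a TGACG match on the opposite strand 72 bases before. In GSTU7 the matches begin 61, 52 and 49 bases before the start, and the last pair overlaps on opposite strands. GSTU7 (AT2G29420) had 7515 and 7085 in low_Pi roots, against 8593 and 9434 in plus_Pi roots (log2 -0.30, or -0.05 relative to the median gene). Of the 50-base windows of its transcript, 55.7% also occurred in another annotated transcript.
GSTU11 (chr1:26338769-26339068, minus strand, TAIR10.1): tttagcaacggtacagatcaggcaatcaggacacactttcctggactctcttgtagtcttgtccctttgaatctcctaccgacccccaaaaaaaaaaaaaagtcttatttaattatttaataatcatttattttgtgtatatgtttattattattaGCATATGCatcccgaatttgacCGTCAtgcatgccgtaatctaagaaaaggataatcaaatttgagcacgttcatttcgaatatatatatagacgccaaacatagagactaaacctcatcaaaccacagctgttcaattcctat
GSTU7 (chr2:12618850-12619149, minus strand, TAIR10.1): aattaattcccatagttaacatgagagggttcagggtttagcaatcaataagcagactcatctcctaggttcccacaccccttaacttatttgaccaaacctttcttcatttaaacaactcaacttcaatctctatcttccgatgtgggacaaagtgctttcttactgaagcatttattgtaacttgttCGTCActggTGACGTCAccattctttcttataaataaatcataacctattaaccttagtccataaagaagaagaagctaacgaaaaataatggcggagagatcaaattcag

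Other genes around the GST reaction were mostly under 2-fold, as were most compared genes, with 4.58% at least 2-fold higher and 4.47% lower. None of the 13 genes of other GST classes was 2-fold apart, with a median of 0.02; DHAR1, which recycles ascorbate, averaged 8905.5 in low_Pi and 8758.5 in plus_Pi, and GSTZ1 stood at 0.10. None of 14 genes of glutathione supply and turnover was 2-fold apart, with a range from -0.92 to 0.42 and a median of -0.15. Of these, 2 lay above 0 and 12 below 0, beside 28.6% of all compared genes above 0. GSH1, the first enzyme of glutathione synthesis, stood at -0.14. GR1, the cytosolic glutathione reductase, stood at 0.42, the highest of the list. None of 10 ABCC transporter genes was 2-fold apart, with a range from -0.79 to 0.80 and a median of 0.11. The vacuolar conjugate pumps ABCC1 and ABCC2, the 2 with the highest mean, stood at 0.04 and 0.03. The 5 TGA and SCL14 regulators had a median of -0.38, with SCL14 at 0.04 and TGA5 at -0.47.

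Lists of stress and metabolic partners held 1 or 2 called genes each, beside 4.58% higher and 4.47% lower of all compared genes. Of 12 chemical stress genes outside the family, the cytochrome P450 gene CYP81D8 was higher, at 1226.5 in low_Pi and 285 in plus_Pi (log2 1.96). CYP81D11, of the same P450 family, was lower at 6134 in low_Pi and 13292 in plus_Pi (log2 -1.11), and the list median was 0.04. Of 6 camalexin genes, CYP71A12 was lower (log2 -1.19), and the median was -0.12. Of 9 anthocyanin genes, 7 were under the minimum mean and 3 of these were listed at 0, and CHS, the entry enzyme of flavonoid synthesis, was higher at 2053 in low_Pi and 387 in plus_Pi (log2 2.29).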

How the data were processed

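RNA from 4 root libraries was used. Per the labels' protocols, oligo(dT)-selected RNA was fragmented and sequenced on an Illumina platform. CASAVA 1.4, FastQC, HISAT2, HTSeq and edgeR are named, with no roles, per the submitters' processing notes. The genome build and annotation are not given in the sources used here. The authors deposited whole numbers called normalized counts, by a normalization not given, which were treated as a score with unknown read depth, so no count model and no counting interval were used. Column names gave the sample, except that the second low_Pi column could be placed in its group only. The labels do not state whether libraries of a group are separate cultures.

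The members and lists were chosen with earlier results of these data known. Log2 differences used a pseudocount and a minimum mean of 41.5, 1 millionth of the mean column total, with a 2-fold rule for calls. Because each group counts as 1 sample, limma 3.58.1 in R 4.3.3 served only as an alternative; the scaling and limma steps were tested on simulated data. Named members are those at least 2-fold apart and the 5 others per class with the highest mean per kb of coding length; of each list, up to 3 genes at least 2-fold apart or the 2 with the highest mean. Other members were named after their values were seen. All 41 members, and 27445 of 27655 identifiers, matched the RefSeq TAIR10.1 annotation, from which positions, exon overlap, coding sequences (global alignment, Biopython 1.88) and promoters were read. Alternatives covered the pseudocount, the filter, 4 scalings, fold sizes, limma with and without a block for replicate number, and leaving out each library. A crossed block was chosen after seeing the data.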

Additional observations from a re-analysis of the deposited data

How the results depend on the processing

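Members at least 2-fold higher in low_Pi numbered 0 of the phi class and 4 of the tau class, and those at least 2-fold lower 3 and 0. Of all compared genes, 4.58% were higher and 4.47% lower. Phi members higher numbered 1 with trimmed-mean or median-of-ratios scaling (GSTF10 in both), 2 at 1.5-fold, 4 by limma without the block and 2 with it. Phi members lower numbered 1 with a pseudocount of 208, with a minimum mean of 208, at 4-fold, and with quantile, trimmed-mean or median-of-ratios scaling (GSTF14 in each), and 5 by limma without the block. Tau members higher numbered 2 with a pseudocount of 208, 7 at 1.5-fold, 0 at 4-fold, 16 by limma without the block, 8 with it, and 2 to 4 without 1 library, where GSTU10 and GSTU14 were under 2-fold without low_Pi replicate 1 or plus_Pi replicate 1. Tau members lower numbered 1 with a pseudocount of 4.15 and at 1.5-fold (GSTU16 in both), 5 by limma without the block and 2 with it.

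The phi median of -0.30 was 0.30 with a minimum mean of 208, which leaves out GSTF3 and GSTF13 but keeps GSTF14. It was -0.02 with median-of-ratios scaling, and ran from -0.36 to -0.23 without 1 library. The tau median ran from 0.25 to 0.58 over all settings. The ratio of phi sums ran from 1.24 with quantile normalization to 1.62 with median-of-ratios scaling, and that of tau sums from 1.015 without plus_Pi replicate 1 to 1.29. For the 17 named members, 198 of 202 values under other settings moved by under 1.5-fold, 4 moved further (GSTF3 and GSTF14 with either pseudocount), and of the 7 called members 0 changed sign. GSTU19, at -0.08, was at 0.20 with median-of-ratios and 0.19 with trimmed-mean scaling. The cause of these shifts was not tested. Limma called 12951 of 18729 genes without the block and 7208 with the replicate block at an adjusted p under 0.05, where p-values reflect only the scatter of columns that may not be independent. No label ties replicate numbers to a batch. Over 18729 genes, the deviations of replicate 1 from its group mean had r = -0.114 between low_Pi and plus_Pi. With 2 libraries a group, the deviations of replicate 2 only mirror those of replicate 1. With the crossed replicate block, chosen after seeing the data, limma called 4 phi and 17 tau members higher. It called 5 phi and 7 tau members lower, and 17437 genes in all. Of all compared genes, 25.3% were called higher and 67.8% lower there.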
